A study of Mus musculus with 5 samples.

Results

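The genes described here are Pygo2, its paralog Pygo1, and the proteins that join them to the TCF factors on Wnt-responsive enhancers: Bcl9, Bcl9l, Ctnnb1, Ldb1, Tcf7, Lef1, Tcf7l1 and Tcf7l2. A probe set was taken as a member where its only gene symbol in the platform annotation was one of these 10 names. That gave 19 of the 45037 probe sets on the array, covering 9 of the 10 genes and 9 of the 18193 genes measured. For Tcf7 there was none, and it is not analysed here.

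The arrays held RNA of EpCAM-selected tumour cells from the prostates of 5 C57BL/6 mice. The 2 nTKO mice, aged 31.43 weeks (nTKO 1) and 16 weeks (nTKO 2), carried Pygo2L/L. The 3 nDKO mice, aged 15.86 weeks (nDKO 1) and 10.71 weeks (nDKO 2 and nDKO 3), did not. Both genotypes carried the Probasin driver, which is active in prostate epithelium, and floxed alleles that include Smad4L/L, so the nDKO mice are tumour-bearing controls rather than normal prostate. Deletion depends on that driver, and cells of lineages in which it was never active keep their floxed genes. The separate animals make these 5 independent samples, but age and genotype are partly confounded. Values are log2 signals after RMA, the authors' background correction, quantile normalization and probe set summary, and a difference is nTKO minus nDKO.

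In Wnt signalling, beta-catenin that escapes degradation enters the nucleus and binds TCF or LEF proteins on DNA. Bcl9 or Bcl9l bridges beta-catenin to a Pygopus protein, whose PHD finger binds histone H3 methylated at lysine 4. Ldb1 and single-stranded DNA binding proteins hold Pygopus near the enhancer, and the assembly is known as the Wnt enhanceosome. In mice Pygo2 is expressed in most tissues and Pygo1 in few. Without a Wnt signal the same TCF proteins recruit Groucho co-repressors.

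The preparations had high signals for epithelial genes and unequal signals for other types. The median of 6 epithelial markers, among them Epcam, Krt8 and Cdh1, lay between 12.49 and 12.78 in nTKO and between 12.51 and 12.72 in nDKO cells. The 2 arrays that stood apart were nTKO 1 and nDKO 1, the oldest mouse of each genotype. Their 7 squamous markers, among them Krt10 and Krt13, had medians of 9.62 and 11.57, against 5.55 in nTKO 2 and 6.02 and 6.03 in nDKO 2 and nDKO 3. The 4 neutrophil markers measured of 6 summed to 15275 (linear signal) in nTKO 1 and 691 in nTKO 2, against 1583 to 2701 in nDKO cells. Macrophage markers had medians of 8.15 and 7.36 in nTKO and 8.18, 7.64 and 8.89 in nDKO cells, and basal epithelial markers 11.17 and 10.24 in nTKO and 11.96, 10.79 and 10.63 in nDKO cells. The list medians of smooth muscle markers lay between 5.37 and 5.49, and those of fibroblasts, endothelium, B cells and nerve and glia between 3.09 and 4.36, with single genes of these lists above that. The fibroblast markers summed to 216 and 855 (linear signal) in nTKO cells, against 349, 790 and 646 in nDKO cells, and Dcn alone measured 6.41 and 9.52 in nTKO cells, against 7.87, 9.39 and 9.03 in nDKO cells. The sums were low in nTKO 1 and nDKO 1, as Dcn was, but the list medians were not. Those medians were 4.23 and 4.19 in nTKO cells, against 4.36, 4.19 and 4.18 in nDKO cells. All array medians lay between 4.94 and 4.98, the level below which a probe set is called dim here.

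Pygo2 was the member that differed most, and it was lower in both nTKO mice. Its single probe set, 1428249_at, measured 7.30 and 6.35 in nTKO cells, against 8.65, 8.62 and 8.72 in nDKO cells. The nTKO mice were 0.95 apart while the nDKO mice lay within 0.10 of each other, and the groups did not overlap. The difference was -1.84 (95% interval -2.66 to -1.01, n = 2 and 3), with an unadjusted limma p of 0.00314. Only 2 of the 18193 genes had a more negative difference. After Benjamini-Hochberg adjustment over all genes the limma p was 0.853, and 0 genes passed 0.05 (0%), with 689 genes (3.79%) under 0.05 before adjustment. An exact permutation test, one-sided, cannot give less than 0.1 with 10 splits.

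The mouse with more Pygo2 signal left, nTKO 1 at 38.9% of the nDKO mean, was also the one with the high neutrophil and squamous markers. In nTKO 2 the signal left was 20.1%. The part of other cells in this difference was not tested, and in bulk RNA fewer cells of a type and less RNA per cell cannot be told apart. Where the probe set lies relative to the deleted segment is not known here. The difference kept its sign in every alternative fitted, from -2.42 when adjusted for log2 age to -1.36 without nTKO 2. Leaving mice out could not turn that sign, since the groups did not overlap. Smad4, floxed in both genotypes, measured 9.76 and 10.37 in nTKO and 9.63, 9.88 and 9.88 in nDKO cells. Where its probe set lies relative to the deleted segment is not known here either, and the deletion of Smad4 was not tested.

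**Figure D1:**
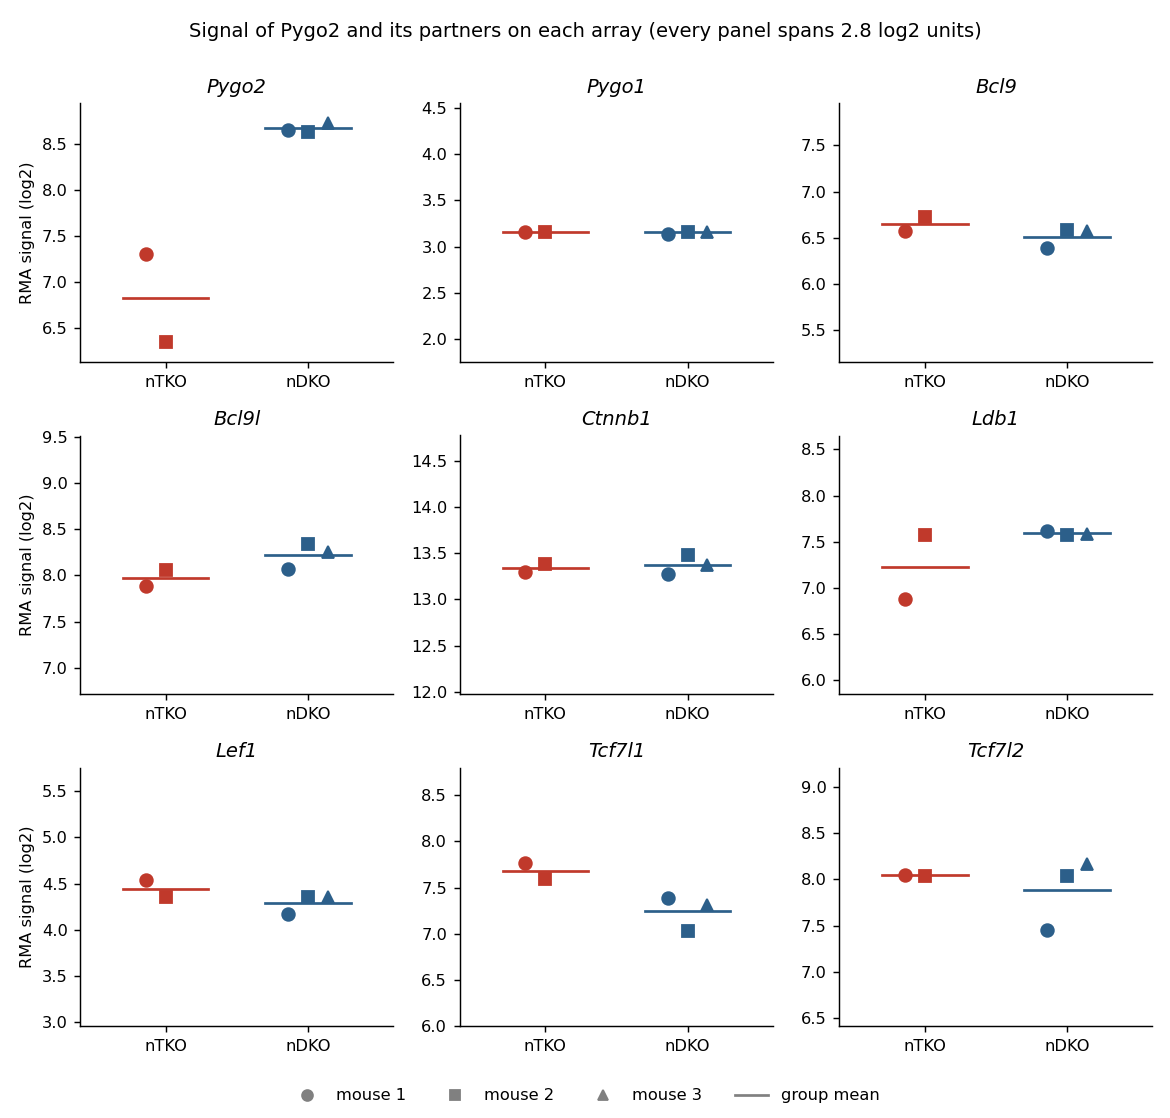
RMA signal (log2, vertical axis) of each gene's brightest probe set in the 2 nTKO and 3 nDKO mice, with bars at the group means. Pygo2 separates the genotypes widely, Ldb1 is low in nTKO 1 alone (6.88) and Tcf7l2 in nDKO 1 alone (7.45).

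The genes beside Pygo2 had much smaller differences, with intervals that did not reach that of Pygo2. Pygo2 lies on mouse chromosome 3 (89430114 to 89435131, GRCm38.p6). Shc1, an adaptor of receptor tyrosine kinases, ends 84 bases before it. That stretch is shown because it separates the gene with the lowered signal from a neighbour whose signal lay between 8.69 and 8.79 on all 5 arrays. CpG bases are in capitals.
Shc1 to Pygo2 gap, chr3:89430030-89430113, plus strand: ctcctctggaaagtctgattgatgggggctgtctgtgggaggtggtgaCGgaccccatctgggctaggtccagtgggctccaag
Shc1 measured 8.73 and 8.79 in nTKO cells, against 8.69, 8.73 and 8.76 in nDKO cells. Its difference was 0.033 (95% interval -0.12 to 0.18), and its groups overlapped. On the other side, 1543 bases away, Pbxip1 measured 9.55 and 10.26 in nTKO cells, against 9.28, 9.77 and 9.76 in nDKO cells. Pbxip1 encodes a protein that binds PBX homeodomain factors, and its difference of 0.30 had a wide interval (-0.48 to 1.08). The cell cycle subunit Cks1b (0.27), the FAD synthase Flad1 (-0.023), the mevalonate pathway kinase Pmvk (-0.18) and the potassium channel Kcnn3 (0.013, dim in all arrays) completed the 6 neighbours. These are the 3 nearest protein-coding genes on each side, with Gm and LOC names left out. Of these 6, 4 were higher, 2 lower and 0 had groups that did not overlap, with limma adjusted p of 0.853 to 0.983.

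**Figure D2:**
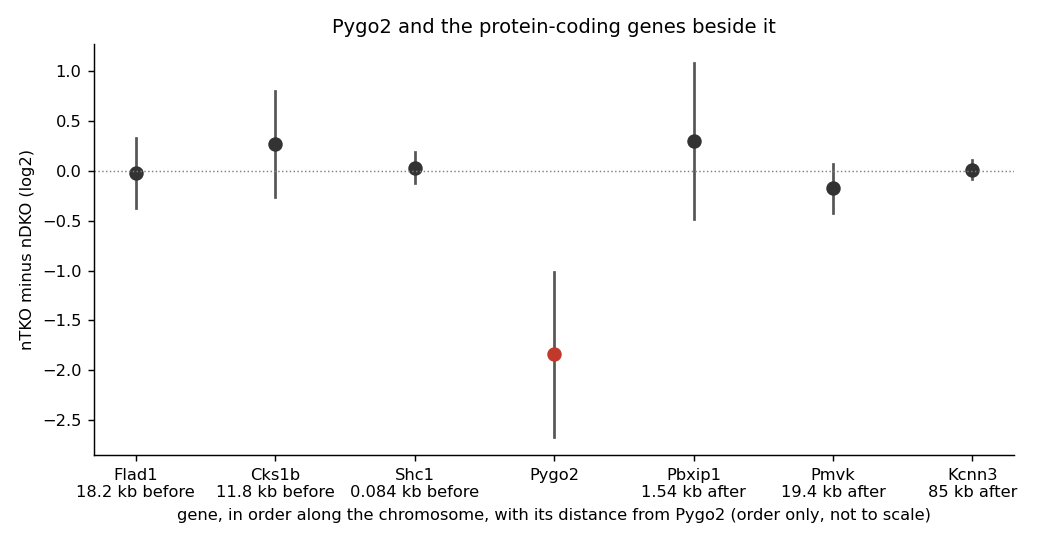
Difference between genotypes (nTKO minus nDKO, log2, vertical axis) with limma 95% intervals for Pygo2 and the 3 nearest protein-coding genes on each side (Gm and LOC names left out), in chromosomal order. The intervals of the 6 neighbours all include 0, while that of Pygo2 runs from -2.66 to -1.01.

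Pygo1, which encodes the other Pygopus protein, stayed dim where Pygo2 was low. Its probe set, 1431091_at, read 3.16 and 3.16 in nTKO cells, against 3.14, 3.16 and 3.16 in nDKO cells. The 5 values spanned 0.02, and the difference was 0.0067 (95% interval -0.064 to 0.077). All were well below the array medians, where RMA draws probe sets towards a floor, so a narrow interval at this level does not bound the transcript. Its promoter window, 84% G or C with 48 CpG pairs, was the most GC-rich of those of the members.

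The adaptors gave small differences whose sign depended on the probe set. Bcl9l by its brightest probe set, 1419180_at, measured 7.89 and 8.06 in nTKO cells, against 8.07, 8.34 and 8.25 in nDKO cells. Both nTKO mice were below every nDKO mouse, but nTKO 2 and nDKO 1 were only 0.01 apart. The difference was -0.25 (95% interval -0.55 to 0.059, limma adjusted p = 0.853), and it was -0.16 without nTKO 1, -0.031 when adjusted for log2 age and -0.01 between the 2 mice closest in age across genotypes (nTKO 2 minus nDKO 1, the age-matched pair). Its other probe sets, both dim, ran the other way: 1438806_at gave 0.16 and 1443700_at gave 0.055.

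Bcl9 overlapped between the genotypes by both of its probe sets. With 1451574_at it measured 6.57 and 6.72 in nTKO cells, against 6.39, 6.58 and 6.57 in nDKO cells, a difference of 0.13 (95% interval -0.12 to 0.39), which was 0.057 without nTKO 2 and 0.31 when adjusted for log2 age. With 1455565_at it measured 5.53 and 6.33 in nTKO cells, against 6.03, 6.00 and 6.07 in nDKO cells. By this second probe set the nTKO mice lay on either side of all the nDKO mice, and the mean difference was -0.10 (95% interval -0.80 to 0.60).

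Ctnnb1, the beta-catenin gene, was bright and nearly level across arrays. Its probe set 1420811_a_at read 13.30 and 13.38 in nTKO cells, against 13.27, 13.48 and 13.37 in nDKO cells, a difference of -0.033 (95% interval -0.26 to 0.19). The probe set 1450008_a_at was within 0.07 over all 5 arrays, with 11.91 and 11.98 in nTKO and 11.94 to 11.95 in nDKO cells. The third, 1430533_a_at, was low in nTKO 1 only, at 10.30 and 10.59 in nTKO and 10.58 to 10.61 in nDKO cells. The sign for 1420811_a_at turned under several alternatives, with values of -0.085 to 0.11 over the alternatives. These are transcript signals and carry nothing on the amount or location of the protein.

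Ldb1, the scaffold that dimerises and brings Pygopus to the TCF complex, was low in a single mouse. Its probe set, 1452024_a_at, measured 6.88 and 7.57 in nTKO cells, against 7.62, 7.57 and 7.58 in nDKO cells. nTKO 2 matched nDKO 2 and the groups overlapped. The mean difference of -0.37 (95% interval -0.97 to 0.24, limma adjusted p = 0.853) was -0.71 without nTKO 2, -0.02 without nTKO 1 and 0.042 when adjusted for log2 age. nTKO 1 is the oldest mouse, with high squamous and neutrophil markers as given above, and their part in this value was not tested.

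The TCF and LEF factors differed among themselves. Tcf7l1, which acts mostly as a repressor of Wnt targets and also marks progenitors in skin, was the member with the largest positive difference. Its probe set 1436207_at measured 7.77 and 7.59 in nTKO cells, against 7.39, 7.03 and 7.31 in nDKO cells. Both nTKO mice were above every nDKO mouse, with 0.20 between the lowest nTKO and the highest nDKO value. The difference was 0.44 (95% interval 0.057 to 0.82, a 1.35-fold signal), with a limma p of 0.0326 before and 0.853 after adjustment over all genes. It was 0.33 to 0.53 with 1 mouse left out but smaller in both settings for age, at 0.22 when adjusted for log2 age and 0.20 in the age-matched pair. The other probe set, 1450117_at, overlapped, with 5.03 and 4.82 in nTKO and 4.94, 5.03 and 5.07 in nDKO cells, a difference of -0.088 (95% interval -0.32 to 0.15). Its signals lay close to the array medians, at the edge of the level called dim, where differences may be held near 0.

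Tcf7l2, the main TCF factor of many epithelia, was low in nDKO 1 rather than in either genotype. With 1429428_at it measured 8.05 and 8.04 in nTKO cells, against 7.45, 8.04 and 8.17 in nDKO cells. Every array but nDKO 1 lay between 8.04 and 8.17. The difference was 0.16 (95% interval -0.51 to 0.83), with -0.06 without nDKO 1 and 0.59 in the age-matched pair, which includes nDKO 1. Probe set 1429427_s_at, made from the same source sequence, gave 7.16 and 7.23 in nTKO and 6.73, 7.16 and 7.37 in nDKO cells. Probe set 1425229_a_at gave 5.24 and 5.68 in nTKO and 4.88, 5.55 and 5.70 in nDKO cells. All 3 probe sets were lowest in nDKO 1, whereas the dim 1426639_a_at was lowest in nTKO 1, at 4.46 and 4.67 in nTKO and 4.59, 4.78 and 4.67 in nDKO cells. nDKO 1 also had the highest squamous median (11.57) and the lowest sum of 5 seminal vesicle genes (8484, against 24884 to 53352 on the other arrays). Whether these bear on Tcf7l2 was not tested.

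Lef1, a Wnt target itself and a factor of T cell precursors and hair follicles, was dim on all arrays. Its probe set 1454734_at read 4.54 and 4.35 in nTKO cells, against 4.17, 4.35 and 4.35 in nDKO cells, and 1421299_a_at read 3.79 to 3.84 throughout. On 3 arrays the probe set 1454734_at had the identical value of 4.35, and the difference of 0.16 (95% interval -0.10 to 0.41) was 0 without nTKO 1 and nDKO 1. T cell markers, 10 measured of 11, summed to 273 and 265 in nTKO cells, against 256, 266 and 271 in nDKO cells, with list medians of 4.08 to 4.48 that were also dim.

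**Figure D3:**
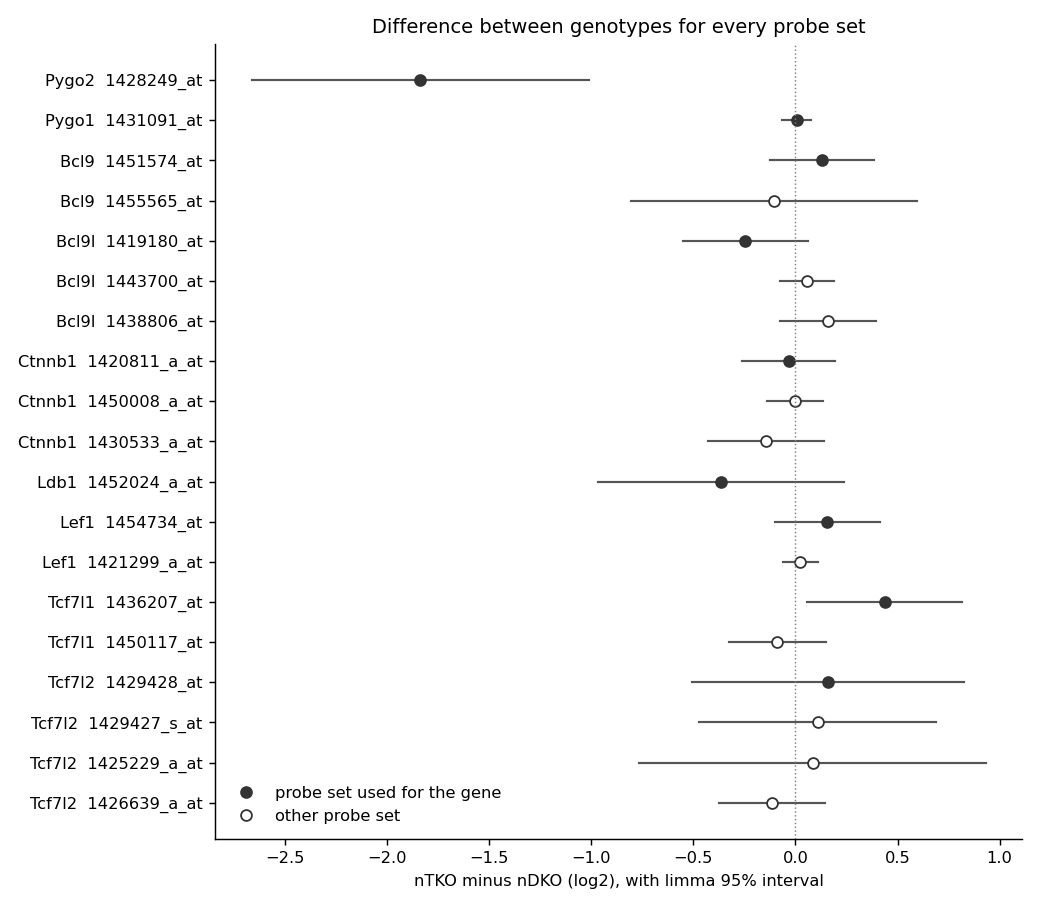
Difference between genotypes (nTKO minus nDKO, log2, horizontal axis) with limma 95% intervals for all 19 probe sets, filled where the probe set represents its gene. The intervals of Pygo2 and of the Tcf7l1 probe set 1436207_at leave out 0, and the other 17 include it.

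Across the 9 genes, both nTKO values lay below all 3 nDKO values for Pygo2 and Bcl9l, and above them for Tcf7l1. That is 3 of 9 where 12.8% of all genes had groups that did not overlap, and 3 of 19 probe sets where the share was 12.2% of all. Before adjustment 2 of 9 had a limma p under 0.05, against 3.79% of all genes, Tcf7l1 on the higher side (2.46% of all) and Pygo2 on the lower (1.33%). With a fold of at least 2 besides, Pygo2 alone was left, against 0.132% of genes. Leaving Pygo2 aside, the 8 partners had 5 higher and 3 lower values, with a median difference of 0.069 beside 0.028 over all genes. That median was -0.03 without nDKO 1 and 0.15 in the age-matched pair. These counts were not tested further, and nothing particular to the partners is read from them.

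For every measured partner but Tcf7l1, the wider spread within a genotype exceeded the difference between the genotype means. The range over the 5 arrays was 2.37 for Pygo2, 0.74 for Ldb1 and for Tcf7l1, 0.72 for Tcf7l2, 0.45 for Bcl9l, 0.37 for Lef1, 0.33 for Bcl9 and 0.21 for Ctnnb1, against a median of 0.31 over all genes. nDKO 1 alone was lowest for 9 of the 19 probe sets (28.8% of all probe sets), namely those of Pygo1 and Lef1, 3 of Tcf7l2 and 1 each of Bcl9, Bcl9l and Ctnnb1. nTKO 1 alone was lowest for 6 of 19 (17.4% of all), among them Ldb1 and 2 of Ctnnb1. nDKO 3 was alone at the bottom for 0 of 19 (12.6% of all).

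**Figure D4:**
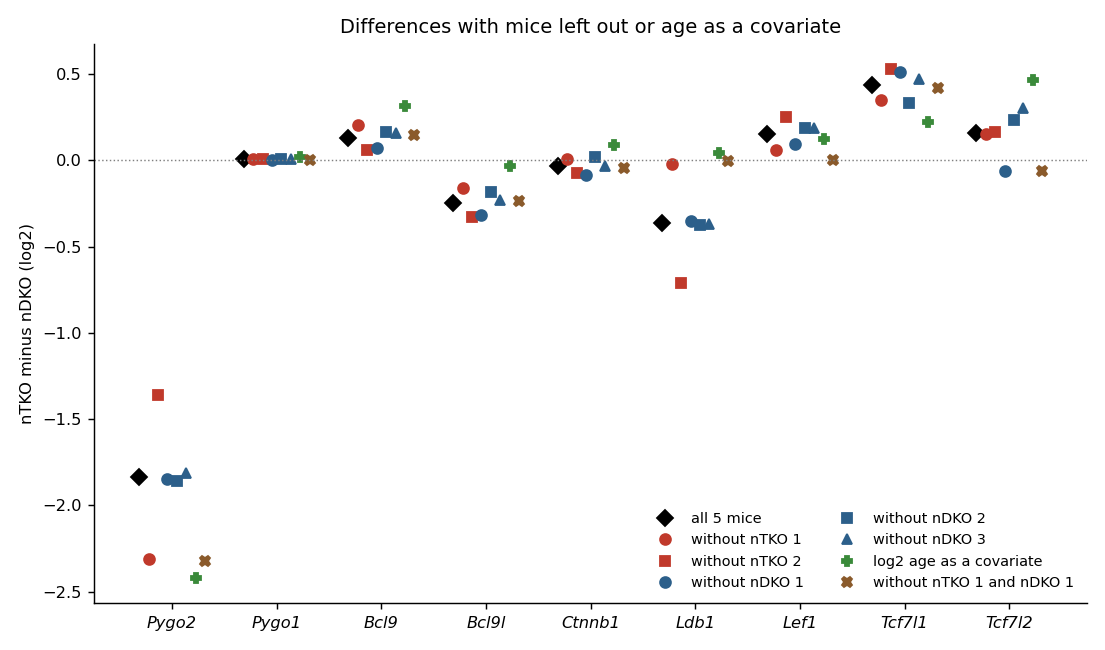
Difference between genotypes (nTKO minus nDKO, log2, vertical axis) for each gene's brightest probe set with all 5 mice, with mice left out, and adjusted for log2 age. Pygo2 stays between -2.42 and -1.36, Ldb1 is -0.37 with all mice and -0.02 without nTKO 1, and Tcf7l1 stays above 0. The groups of Pygo2 and of Tcf7l1 do not overlap, so leaving mice out cannot turn their sign.

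No other member was close to Pygo2 in the size and pattern of its profile over the arrays. Likeness was measured as the Euclidean distance between log2 profiles centred on their mean over the 5 arrays, where the median gene lay 2.16 from Pygo2. The profiles were not scaled, so a gene with a small range lies far from Pygo2 whatever its pattern. Pygo1, with a range of 0.02, lay at 2.13, and no partner had a range above 0.74, against 2.37 for Pygo2. The places below thus reflect range as well as pattern. Bcl9l (1.93) was the nearest member, at place 937 of all genes, then Ldb1 (1.99) at place 1671, and Tcf7l1 (2.56) was the farthest at place 17400. The nearest genes of all were the surface glycoprotein Gp2 (0.90), the fucosyltransferase Fut9 (1.01), the circadian transcription factor Dbp (1.06), the GABA receptor subunit Gabrp (1.15) and the receptor partner Ramp2 (1.17). Gp2 measured 8.22 and 7.22 in nTKO cells, against 9.44, 8.84 and 8.64 in nDKO cells, with the lower nTKO value in nTKO 2 as for Pygo2. These 5 were picked for their likeness over the same 5 arrays, so their genotype differences (-1.25 to -0.95) are a description.

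Among the other parts of the pathway, 88 genes in 6 lists, 0 genes passed 0.05 after adjustment in limma. Before adjustment 3 of the 88 had a p under 0.05 (Dvl1, Setd1b and Bambi), a share of 3.41% against 3.79% of all genes. The groups did not overlap for 13 of the 88, or 14.8%, against 12.8% of all genes. Of 15 genes of the destruction complex and its regulators, which mark beta-catenin for degradation or stop that, 3 were higher and 12 lower, with a median of -0.033. Dvl1, a Dishevelled protein that relays the receptor signal, measured 10.14 and 9.96 in nTKO cells, against 10.33, 10.32 and 10.27 in nDKO cells. It was the 1 gene of that list with groups that did not overlap (difference -0.26, SE 0.076, unadjusted p = 0.026), where 4.71% of all genes were lower without overlap. Amer1 (-0.15), a membrane scaffold for the complex, and Apc2 (-0.07) came next by p. The median was -0.0067 without nTKO 1 and 0.017 when adjusted for log2 age.

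Partners and co-activators further out in the enhanceosome had 12 higher and 7 lower values of 19, with a median of 0.075. Tbl1x, an exchange factor for co-repressors, measured 9.79 and 9.89 in nTKO cells, against 9.68, 9.69 and 9.78 in nDKO cells. It and the Mediator kinase Cdk8 (0.15) were the 2 with both nTKO mice above every nDKO mouse, where 8.13% of all genes were so. For each of them the gap between the groups was only 0.01, the last decimal of the deposited values. Cdc73 (0.14), a subunit of the Paf1 complex that binds beta-catenin, and Ssbp4 (-0.21), a single-stranded DNA binding protein of the Ldb1 complex, overlapped between genotypes. The median of the list was 0.005 without nDKO 2, 0.01 without nTKO 1 and -0.005 without nTKO 1 and nDKO 1.

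Co-repressors and inhibitors of TCF had 6 higher and 9 lower values of 15, with a median of -0.04. Of these, 4 had both nTKO values below all nDKO values, where 4.71% of all genes were so: Hdac1, a deacetylase, the Groucho genes Tle2 and Tle3, and Chd8, a chromatin remodeller that binds beta-catenin. Hdac1 measured 9.90 and 9.39 in nTKO cells, against 10.08, 10.15 and 9.99 in nDKO cells (-0.43, SE 0.17). Tle2 measured 6.52 and 6.51 in nTKO cells, against 6.94, 6.64 and 6.74 in nDKO cells (-0.26, SE 0.11). Nlk, a kinase that phosphorylates TCF proteins, lay on the other side with 9.09 and 8.94 in nTKO cells, against 8.87, 8.73 and 8.80 in nDKO cells (0.21, SE 0.08). In this list 0 of 15 genes had an unadjusted limma p under 0.05, and the median was -0.005 without nDKO 1, -0.10 without nTKO 1, -0.16 when adjusted for log2 age and -0.20 in the age-matched pair.

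The complexes that write the histone mark read by the Pygo2 PHD finger had 3 higher and 10 lower values of 13, with a median of -0.085. Setd1b, a lysine 4 methyltransferase, measured 7.90 and 8.02 in nTKO cells, against 8.11, 8.21 and 8.29 in nDKO cells (-0.24, SE 0.083). Its limma p was 0.0396 before and 0.853 after adjustment over all genes. It and Cxxc1 (-0.04), the CpG-binding subunit of the same complex, were the 2 of 13 whose groups did not overlap, both lower, as were 4.71% of all genes. The gap between the groups was 0.09 for Setd1b and only 0.01 for Cxxc1. Setd1a (-0.19) and Kmt2d (-0.15), methyltransferases of the same family, were lowest in nTKO 1 and overlapped. The median was -0.02 without nDKO 1, -0.037 without nTKO 1 and 0.005 without both.

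Genes of the junctions that bind beta-catenin at the membrane had 2 higher and 7 lower values of 9 (median -0.062), the actin-binding Vcl among them (-0.18). That median was 0 without nDKO 1, -0.0021 when adjusted for log2 age, 0.01 in the age-matched pair and -0.12 over genes at or above the median level. The 2 higher ones, Cdh2 (0.13) and Ctnna2 (0.18), were dim. Of the 18 Wnt target genes measured, 7 had a mean signal below the array medians, where differences may be held near 0. The list had 12 higher and 6 lower values, with a median of 0.0083. It was 0.0017 to 0.025 with 1 mouse left out, -0.0041 when adjusted for log2 age and -0.01 in the age-matched pair, so its sign depended on the setting. Bambi, a decoy receptor for TGF-beta ligands, measured 6.27 and 6.39 in nTKO cells, against 5.82, 6.06 and 6.09 in nDKO cells (0.34, SE 0.11). Ephb3, a receptor for B-type ephrins, measured 7.99 and 7.96 in nTKO cells, against 8.83, 8.24 and 8.26 in nDKO cells (-0.47, SE 0.22). The transcription factor Sp5 (0.20), dim on all arrays, overlapped. Axin2, a feedback inhibitor often used as a Wnt readout, differed by 0.012 (SE 0.16).

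**Figure D5:**
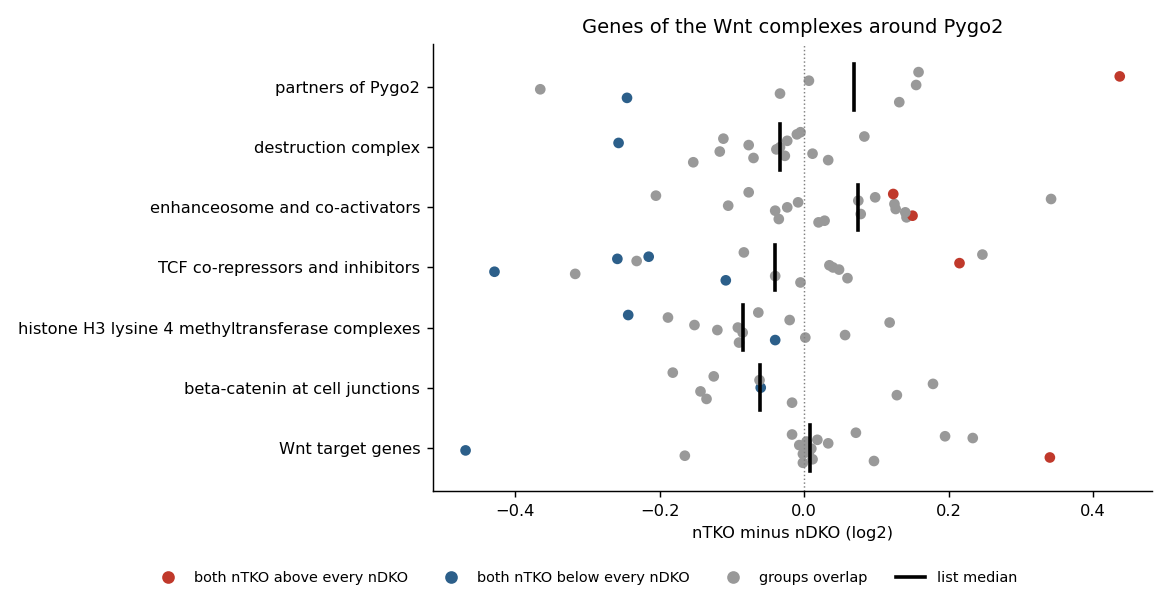
Difference between genotypes (nTKO minus nDKO, log2, horizontal axis) of each measured gene in 7 lists, with a bar at each list's median. The medians lie between -0.085 and 0.075, and coloured points are genes whose genotypes do not overlap.

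RefSeq promoter windows, 250 bases before to 50 after a start (GRCm38.p6), were at hand for all members but Bcl9l, with 19 windows in all. A gene's outermost start was not always among them. For Bcl9, on the minus strand, the only window (97227315 to 97227614) lies inside the gene, which ends at 97298402. The TCF core CTTTGAT, searched on both strands, was in 0 of the 19, against 3.73% of all 32851 windows. These shares are not like for like. The members' windows had a median of 69.7% G or C, against 52.7% over all windows, and some of them overlap. No match says only that these letters are not in these windows.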

How the data were processed

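RNA of 5 samples was measured on Affymetrix mouse arrays. The deposited log2 values have 2 decimals and give each probe set 1 signal on each array. The authors made them with RMA and the Transcriptome Analysis Console, per the submitters' processing notes, versions not stated there. Quantile normalization in RMA would hide a change shared by most genes, and the number of arrays limits the precision. Symbols came from GEO's platform annotation: 34945 probe sets had 1, 932 had several and 9160 had none listed. Each gene takes its value from the single-symbol probe set of highest mean signal. The comparison used limma 3.58.1 in R 4.3.3 (lmFit, eBayes with an intensity trend, no covariate) over all 18193 genes, with Benjamini-Hochberg adjustment at 0.05, two-sided, and other probe sets of the members in the same fit over all 45037. Gene positions and promoter sequences are RefSeq's for GRCm38.p6.

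The members and lists were chosen with earlier results of these data known. The text names all members and their probe sets, up to 3 genes per list by unadjusted p, the 6 neighbours of Pygo2 and the 5 genes nearest to it. Tle3, Chd8, Cdk8, Cxxc1, Axin2 and Dcn are named besides, after their values were seen. Alternatives were mice left out, an adjustment for log2 age, the replicate number as block, a filter at the median level (6.32), a fit over all probe sets, further quantile normalization or median centring, array weights, and eBayes that was robust or had no trend. Some items are not reported here.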

Additional observations from a re-analysis of the deposited data

How the results depend on the processing

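In limma, 0 genes, 0 members and 0 genes of the pathway lists passed the adjusted threshold in each alternative run, and 24 genes were called with the other rule, at least 2-fold and p under 0.05 unadjusted. The Pygo2 difference was -2.31 to -1.36 with 1 mouse left out. Where that left a single nTKO mouse, it was assumed to vary like the nDKO mice. Both genotypes have mice numbered 1 and 2, but the labels give no pairing and only 2 numbers are shared. With the replicate block Pygo2 was -1.81 and 0 genes were called. The deviations of nTKO 1 from its genotype mean correlated across genes at 0.42 with those of nDKO 1, -0.34 with nDKO 2 and -0.31 with nDKO 3. Deviations sum to 0 within a genotype, so those of nTKO 2 give the same values with the sign turned. These correlations therefore cannot decide on a pairing.

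Signs turned for small differences, and the cause was not tested. Ctnnb1 was 0.0048 after quantile normalization, 0.091 when adjusted for log2 age, 0.11 in the age-matched pair and -0.085 to 0.02 with 1 mouse left out. Pygo1 was -0.016 after quantile normalization and -0.0033 after median centring. Ldb1 was 0.042 when adjusted for log2 age. Tcf7l2 was -0.06 to 0.30 with 1 mouse left out and -0.065 without nTKO 1 and nDKO 1. Other probe sets gave the opposite sign for Bcl9 (-0.10), Bcl9l (0.055 and 0.16), Tcf7l1 (-0.088) and Tcf7l2 (-0.12). The median of the Wnt target genes was -0.00033 after quantile normalization and -0.0017 after median centring and over genes at or above the median level. The median of the 6 neighbours of Pygo2 was -0.025 without nTKO 2. Of 329 alternative values, 276 stayed on the same side of the threshold or within the spread between mice, and 38 moved beyond it. The other 15 were gene differences whose sign turned. No gene passed the adjusted threshold in any fit, so a gene's difference was counted among the 276 unless its sign turned. The median-level filter, the fit over all probe sets and eBayes, robust or without trend, cannot change a gene's difference. The replicate block gave the same differences as leaving out the nDKO mouse with the unshared number. The 276 thus do not measure how firm the differences are. Dim probe sets, as those of Pygo1 and Lef1, may not respond to a change in transcript.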
